A study of Mus musculus with 24 samples.

Results

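The genes described here encode the UDP-glucuronosyltransferases (UGT) and the cytosolic sulfotransferases (SULT), the enzymes that join a sugar acid or a sulfate group to steroids, bile acids, bilirubin, thyroid hormones and drugs. They are all genes of the deposited table whose symbol begins with Ugt1, Ugt2, Ugt3 or Sult, without the pseudogene symbols ending in -ps. The rule used no measured value and found 42 genes, 21 UGT and 21 SULT, among 78298 gene IDs, of which 51498 carried a symbol. RNA sequencing counted transcripts in mouse liver, with 6 libraries labelled as normal control mice and 18 labelled as steatohepatitis model mice, a state of fat storage with inflammation in the liver. They give no diet, duration, strain, sex or age, and they number the libraries within each group without saying that each came from a separate animal. P-values therefore measure the spread between these libraries, which may in part be technical.

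UGT enzymes sit in the membrane of the endoplasmic reticulum and take glucuronic acid, or for the UGT3 family other sugars, from a UDP-sugar. SULT enzymes are dissolved in the cytosol and take sulfate from the donor PAPS. Both make their substrates more soluble in water, so that transporters can move the products into bile or blood. The Ugt1a genes are a special case, because alternative first exons at one locus are spliced to shared last exons, so the enzymes differ in the part that binds the substrate.

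The sequences below are shown for 2 reasons. Ugt1a9 and Ugt1a6a start within the same locus and differed in opposite directions between the groups, and 4 Ugt2b genes share a nearly identical stretch just before their start. All are from RefSeq with the build GRCm38.p6, whereas the positions of genes given further on are GRCm39, from the deposited table. The first pair are the 250 bases before the start on the plus strand, with capitals marking matches to letters searched on both strands: AGGTCA, a motif of nuclear receptors, GTTAAT, part of the HNF1 motif (ATTAAC where it lies on the other strand), and TTCNNNGAA, the letters of a STAT5 site.
Ugt1a9, chr1:88070529-88070778: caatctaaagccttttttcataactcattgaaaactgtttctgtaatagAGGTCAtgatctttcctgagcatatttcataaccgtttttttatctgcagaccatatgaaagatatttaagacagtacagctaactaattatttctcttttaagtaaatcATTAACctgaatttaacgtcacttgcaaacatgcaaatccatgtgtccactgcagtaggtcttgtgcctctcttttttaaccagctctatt
Ugt1a6a, chr1:88134559-88134808: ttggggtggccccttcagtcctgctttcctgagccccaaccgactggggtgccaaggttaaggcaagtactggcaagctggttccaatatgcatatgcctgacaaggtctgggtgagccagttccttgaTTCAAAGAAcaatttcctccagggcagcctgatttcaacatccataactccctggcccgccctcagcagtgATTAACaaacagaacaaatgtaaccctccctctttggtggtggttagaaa
Both windows hold the HNF1 letters. The AGGTCA letters stand in the window of Ugt1a9, and the STAT5 letters in that of Ugt1a6a. A match is a description of letters and shows no bound factor.

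The next stretches are 38 bases long, on the minus strand of chromosome 5 except for Ugt2b35, which lies on the plus strand. Capitals mark AGGTCA.
Ugt2b5, chr5:87140342-87140379: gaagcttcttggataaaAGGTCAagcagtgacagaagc
Ugt2b37, chr5:87254807-87254844: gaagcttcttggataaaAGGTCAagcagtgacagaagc
Ugt2b38, chr5:87424208-87424245: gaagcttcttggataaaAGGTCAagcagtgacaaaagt
Ugt2b36, chr5:87092560-87092597: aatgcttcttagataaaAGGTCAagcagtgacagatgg
Ugt2b35, chr5:87000628-87000665: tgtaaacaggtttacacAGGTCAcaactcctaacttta
Ugt2b5 and Ugt2b37 were identical over all 38 bases. Ugt2b38 shared 36 of 38 bases with each of them, and Ugt2b36 shared 33. Ugt2b35, whose match lies 215 to 210 bases before the start, shared 8 with Ugt2b5. RefSeq windows of 250 bases before to 50 after the start were found for 36 of the 42 genes, as 39 windows. AGGTCA stood in 10 of these 39 against 16.3% of 32851 windows of all genes, and GTTAAT in 13 of 39 against 7.10%. Copied genes are counted more than once here. The AGGTCA windows include the 4 alike Ugt2b stretches, and the GTTAAT windows include Sult2a3, Sult2a4, Sult2a5 and Sult2a6. Ugt1a10 and Ugt1a9, also among them, shared 29 of 38 bases around the motif. No enrichment was tested. The letters GCGTG, the core of the element bound by the aryl hydrocarbon receptor, stood in 6 of 39 against 32.4%, and TGACNNNGC, the core of the antioxidant response element, in none of 39 against 12.4%. The absence of these letters says nothing of the factor outside these windows.

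Library totals lay between 31.6 M and 58.4 M counts, and 3 counts stand for 0.0489 to 0.107 CPM, the counts scaled to the size of the library after TMM factors. Of 17456 genes tested, 60.0% differed between the groups (quasi-likelihood test of edgeR with Benjamini-Hochberg adjustment, threshold 0.05), so a call alone does not set a gene apart. TMM factors were 0.813 to 0.891 in controls and 0.990 to 1.164 in model libraries, without overlap. All 8 hepatocyte markers were lower in model livers, with summed levels of 53976 to 112814 CPM against 117415 to 181238 in controls. Of these, Ttr was not called with library totals alone (0.03, adjusted p = 0.802, edgeR) or with an index of clock genes as a covariate (-0.40, adjusted p = 0.103). All 10 macrophage markers were higher, at 122 to 762 against 19.6 to 45.8 CPM. Itgam was at 0 in 1 control, and no other marker of either list was at 0 in a library. The markers of other cell types moved as well, with 6 of 7 stellate cell, 4 of 5 endothelial, 4 of 4 neutrophil, 4 of 4 B cell, 5 of 6 T and NK cell and 1 of 5 cholangiocyte markers higher and 0 lower. In liver tissue, fewer hepatocytes and less RNA per hepatocyte cannot be told apart, and the part of cell composition in the results below was not tested.

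The summed levels of both families had a lower mean in model livers. UGT genes together took 5915 ± 590 CPM in controls (SD, n = 6) and 3593 ± 597 in model livers (SD, n = 18). SULT genes took 1211 ± 268 and 738 ± 192 CPM. The ranges of the groups overlapped for both sums, although by little for the UGT genes, where the highest model library reached 5056 and the lowest control 5052 CPM. Of the 42 genes, 25 passed the expression filter, and 6 of these were called higher and 14 lower, against a background of 31.2% higher and 28.8% lower over all genes tested. The median log2 fold change of the 25 was -0.37, against 0.01 for all genes. The families differed in their counts: 2 of 17 tested UGT genes rose and 11 fell, with a median of -0.44, while 4 of 8 tested SULT genes rose and 3 fell, with a median of 0.38. The difference between the families was not tested. The groups did not overlap for 1 gene that rose and 4 that fell, where the background is 9.67% and 6.02% of genes.

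**Figure D1:**
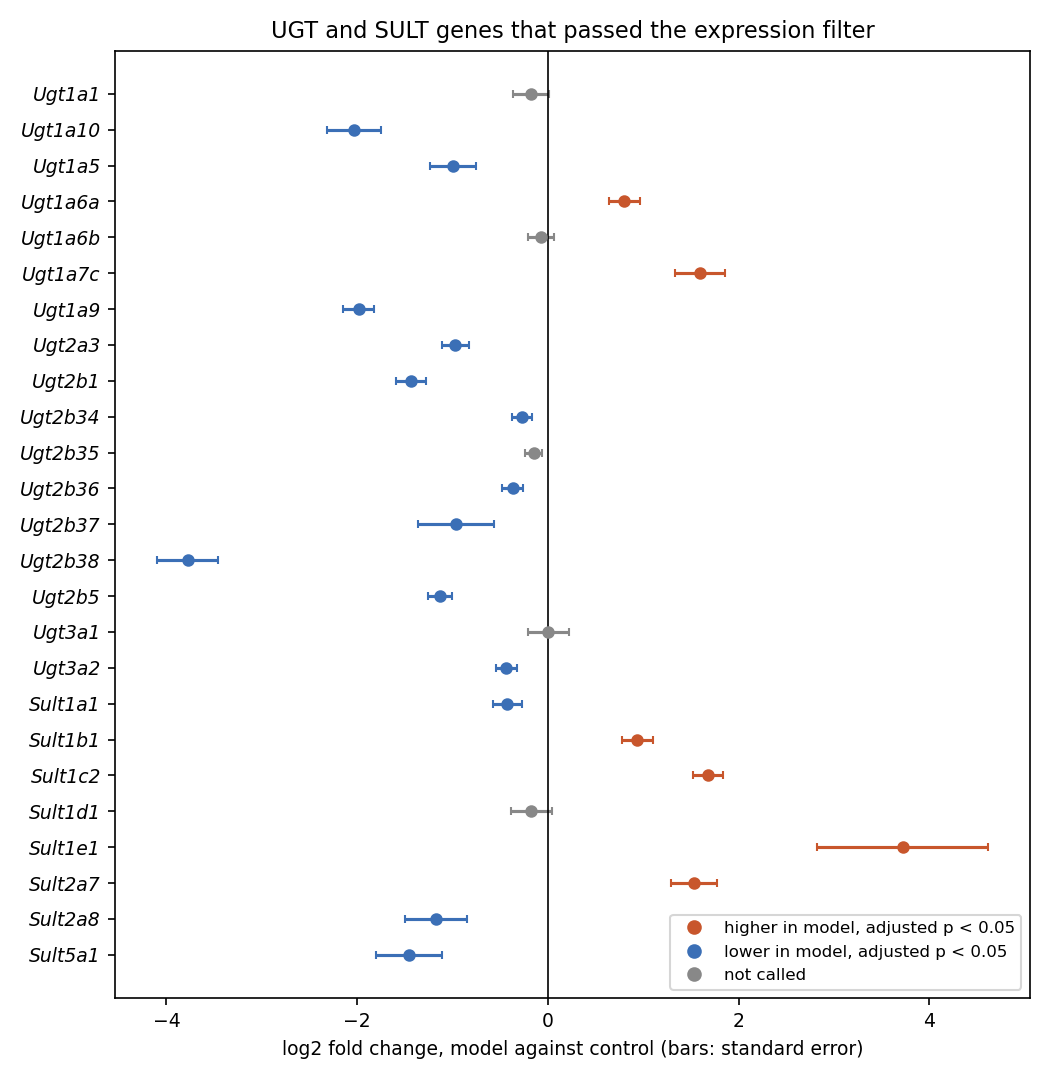
Log2 fold changes of model against control livers for the 25 UGT and SULT genes that passed the filter, with points for the edgeR estimate, bars for its standard error and colours for the call. Values run from -3.78 for Ugt2b38 to 3.72 for Sult1e1, and the widest bar belongs to Sult1e1.

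Within the Ugt1a locus on chromosome 1, the first exons went in different directions. Ugt1a9, an enzyme of phenols and many drugs, measured 77.0, 89.8 and 131 CPM in controls (lowest, median and highest library) and 13.4, 22.0 and 47.5 CPM in model livers. Every model library lay below every control. On the log2 scale the change was -1.98 (SE 0.17, adjusted p = 4.86e-10, edgeR), a fall of 3.96-fold. Ugt1a10, which is rare in liver, measured 0.462, 1.00 and 1.35 CPM in controls and 0.0464, 0.198 and 0.417 in model livers, again with no overlap, but with its lowest libraries near the level of 3 counts. It fell by 2.03 on the log2 scale (SE 0.28). Ugt1a5 fell as well, from 14.3 ± 3.97 to 7.17 ± 3.02 CPM (1.99-fold lower), with 12 of 18 model libraries below all controls. With an index of clock genes as a covariate it no longer passed (adjusted p = 0.0590).

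Ugt1a6a, an enzyme of small flat phenols, rose. It measured 4.87 ± 1.22 CPM in controls and 8.52 ± 1.83 in model livers, or 0.80 on the log2 scale (SE 0.16, adjusted p = 1.02e-04, edgeR), and 16 of 18 model libraries lay above all controls. Ugt1a7c, low in both groups, measured 0.161, 0.194 and 0.284 CPM in controls and 0.278, 0.640 and 0.951 in model livers. Only the lowest model library overlapped the controls, and the log2 fold change was 1.60 (SE 0.26). Ugt1a1, the enzyme that conjugates bilirubin, was the most abundant Ugt1a gene per kilobase and did not pass the test: 163 ± 15.8 CPM in controls, 144 ± 44.8 in model livers, log2 fold change -0.18 with a 95% interval from -0.54 to 0.19. Ugt1a6b likewise gave -0.07 (-0.34 to 0.19).

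The makeup of the locus moved with these values. Ugt1a9 took 27.6 ± 2.23% of the counts given to Ugt1a genes in controls and 9.93 ± 2.35% in model livers. Ugt1a1 went from 48.0 ± 1.63 to 58.2 ± 4.33%, Ugt1a6b from 18.4 ± 0.893 to 24.7 ± 1.95%, and Ugt1a6a from 1.48 ± 0.464 to 3.69 ± 1.20%. The log2 ratio of Ugt1a6a to Ugt1a9 was -4.30 ± 0.68 in controls and -1.45 ± 0.49 in model livers, a difference of 2.85 with no overlap. This and 2 other ratios below were chosen after the values were seen and are given with no test. The Ugt1a rows share most of their exon bases, with 16.9 to 49.7% of a gene's exon bases its own, and how reads in shared exons were assigned is not given in the sources used here. The opposite-strand gene Gm20528 overlaps all of them, and the counting is not stated to use strand. Counts of single Ugt1a genes are therefore uncertain, and so is their sum. All rows summed fell by 0.48 on the log2 scale (SE 0.15, adjusted p = 0.00880, edgeR). The ranges overlapped, at 308 to 424 CPM in controls and 132 to 347 in model livers. The sum was not fitted with library totals, where Ugt1a1 gave 0.14, Ugt1a6b 0.25 and Ugt1a9 -1.66.

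**Figure D2:**
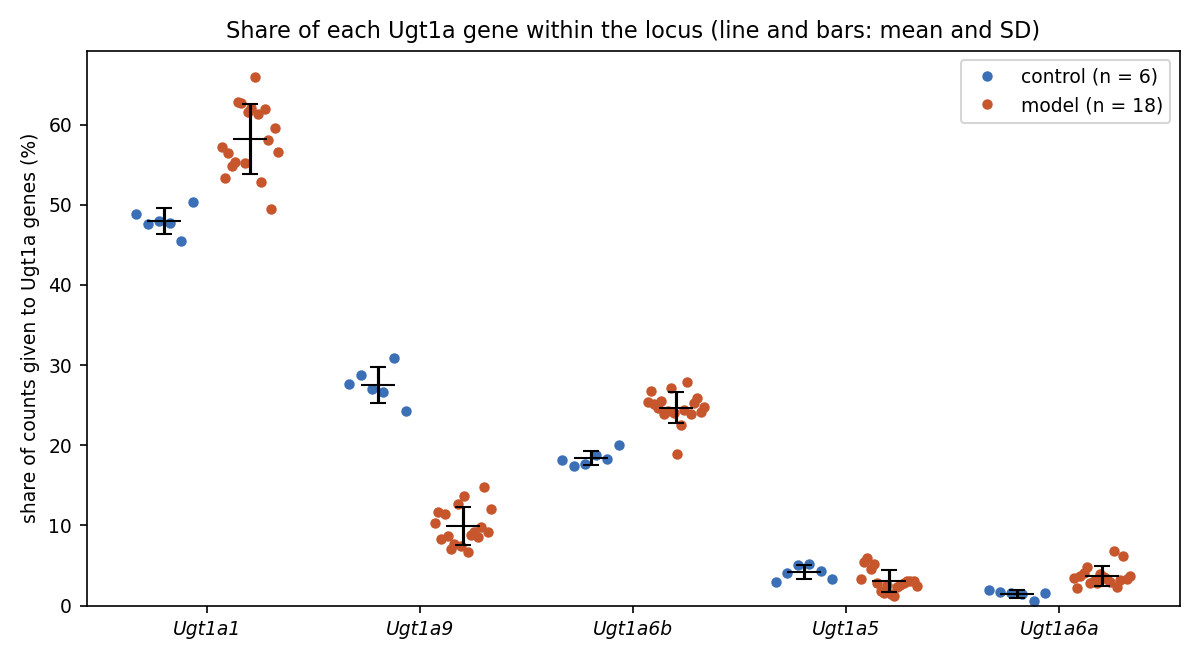
Share of the counts given to Ugt1a genes that each of 5 genes took, in percent, with 1 point per library and the group mean and SD. Ugt1a9 lies at 24.3 to 30.9% in controls and at 6.67 to 14.9% in model livers.

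The Ugt2b genes, whose enzymes conjugate steroids, bile acids and drugs, supplied most UGT transcripts, at 4555 ± 573 CPM in controls and 2671 ± 436 in model livers. Together with Ugt2a3 they lie in a cluster of 13 members on chromosome 5 (87037626 to 87739453 in GRCm39, 702 kb) that ends with Sult1b1, Sult1d1 and Sult1e1. Ugt2b38 differed most. It measured 5.44, 20.6 and 28.2 CPM in controls (lowest, median, highest) and 0.473, 1.15 and 3.05 CPM in model livers, with no overlap. Its log2 fold change was -3.78 (SE 0.32, adjusted p = 7.85e-10, edgeR), or 13.7-fold lower. With the clock index as a covariate it was -2.97, still called, and with control 6 as the only control -2.01.

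Ugt2b5, the most abundant member per kilobase in both groups, fell from 1710 ± 281 to 779 ± 178 CPM (a log2 change of -1.13, SE 0.13), and 17 of 18 model libraries lay below all controls. Ugt2b1 fell from 929 ± 137 to 344 ± 96.5 CPM (-1.43, SE 0.15) with no overlap. Ugt2b36 fell less, from 932 ± 139 to 721 ± 124 CPM (-0.37, SE 0.11), and Ugt2b34 by 0.27 (SE 0.10). Scaled by library totals alone, Ugt2b36 gave -0.05 and Ugt2b34 0.06, and neither was called. Ugt2b35 was not called, at 366 ± 42.3 and 329 ± 43.6 CPM (-0.15, 95% interval -0.32 to 0.02). The log2 ratio of Ugt2b1 to Ugt2b35, neighbours in the cluster, was 1.34 ± 0.33 in controls and 0.02 ± 0.39 in model livers, without overlap. Ugt2b37 measured 3.78 ± 2.64 and 1.94 ± 1.21 CPM and was called lower (-0.97, SE 0.40, adjusted p = 0.0399, edgeR), but the call was lost when any of 3 control or 3 model libraries was left out. With the clock index as a covariate its log2 fold change was 0.56 (adjusted p = 0.615). Ugt2a3, which conjugates bile acids, fell from 415 ± 54.1 to 212 ± 51.7 CPM (-0.97, SE 0.14), with 17 of 18 model libraries below all controls.

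The UGT3 genes on chromosome 15 use sugars other than glucuronic acid. Ugt3a2 fell from 531 ± 31.4 to 392 ± 75.6 CPM (a log2 change of -0.44, SE 0.11, adjusted p = 0.00133, edgeR), and 15 of 18 model libraries lay below all controls. It was not called with library totals alone (-0.12) or with the clock index (-0.33). Ugt3a1 measured 73.5 ± 8.63 and 73.9 ± 26.0 CPM, with a 95% interval of the log2 fold change from -0.41 to 0.42 and a wider spread among model libraries.

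**Figure D3:**
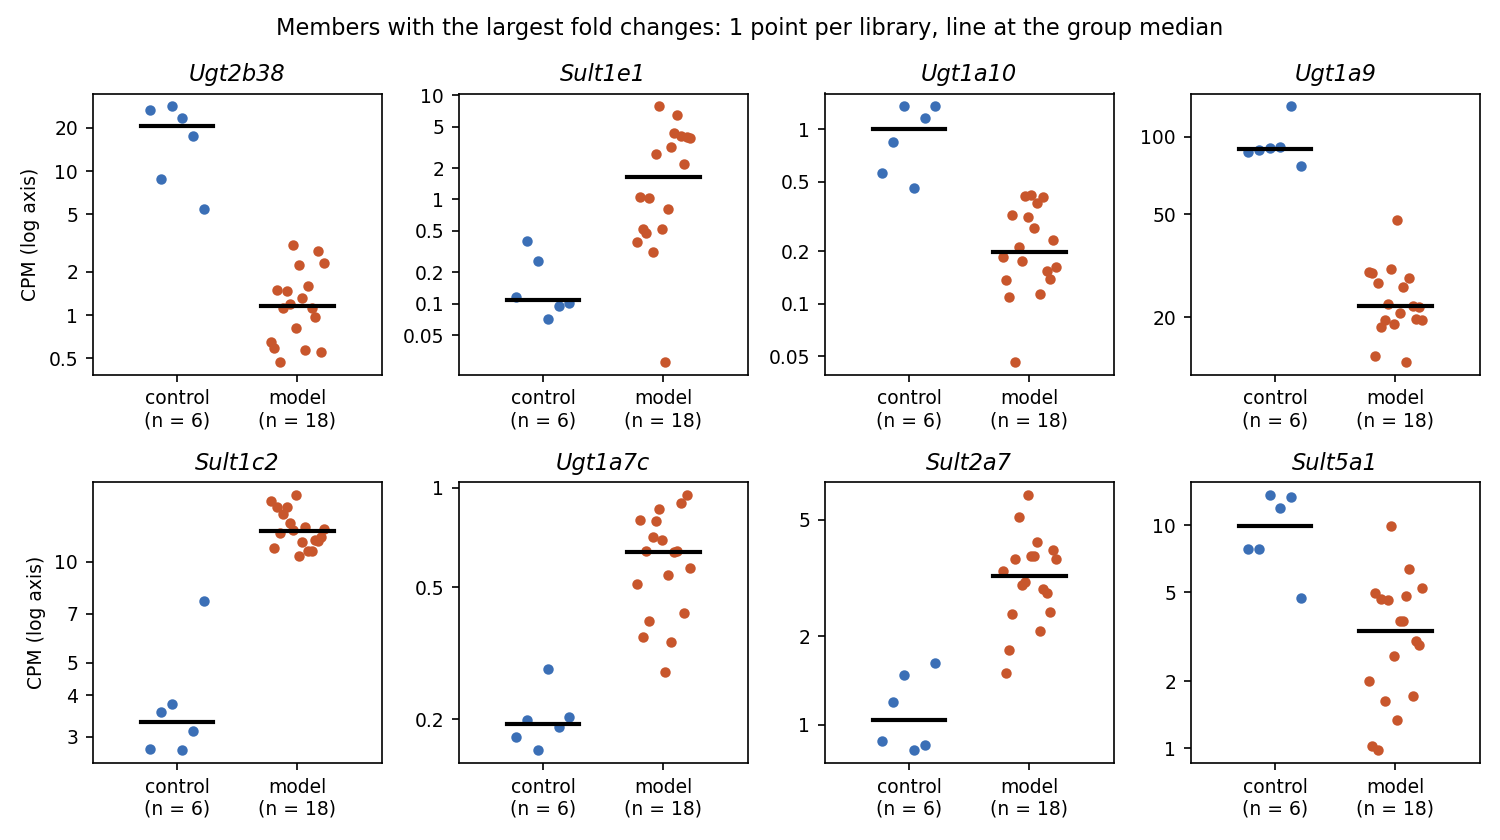
CPM on a log axis for the 8 called members with the largest absolute fold changes, with 1 point per library and a line at the group median. Groups are apart for Ugt2b38, Ugt1a10, Ugt1a9 and Sult1c2, and the model libraries of Sult1e1 run from 0.0278 to 7.82 CPM.

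Among SULT genes, several rare members rose while the abundant ones fell or were not called. Sult1e1, the oestrogen sulfotransferase, measured 0.0710, 0.110 and 0.397 CPM in controls and 0.0278, 1.64 and 7.82 CPM in model livers. Model 10 was the lowest of all libraries, model 8 was the highest, and 15 of 18 model libraries lay above all controls. The log2 fold change was 3.72 (SE 0.90, adjusted p = 9.55e-04, edgeR). It was 4.67 with the clock index, 4.5 with control 6 as the only control, and 1.86 with the replicate number as a block. The block fit rests on libraries 1 to 6 of each group, and model 1 to model 6 measured 0.315 to 1.07 CPM. The size of the rise thus depends on the model libraries used. Control values are close to the level of 3 counts. Sult1c2, a sulfotransferase of phenols, measured 2.74, 3.33 and 7.64 CPM in controls and 10.4, 12.3 and 15.8 in model livers, with no overlap. It rose by 1.68 on the log2 scale (SE 0.16, adjusted p = 1.87e-09, edgeR), by 1.97 without control 6, the highest control, and by 1.01 with the clock index.

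Sult2a7 measured 0.817, 1.04 and 1.62 CPM in controls and 1.50, 3.21 and 6.09 in model livers. Of the model libraries 17 lay above all controls, and the log2 fold change was 1.53 (SE 0.24, adjusted p = 6.15e-06, edgeR). Its neighbour on chromosome 7, Sult2a8, a liver enzyme that sulfates bile acids, was far more abundant and fell from 705 ± 182 to 312 ± 161 CPM (-1.17, SE 0.32, adjusted p = 0.00319, edgeR). It spread widely among model libraries, from 50.9 in model 2 to 631 in model 10, and 13 of 18 lay below all controls. The call was lost with the clock index (adjusted p = 0.0907, edgeR), where the log2 fold change was -1.10 with a wider SE of 0.51. The log2 ratio of Sult2a7 to Sult2a8 went from -9.28 ± 0.48 to -6.41 ± 0.73. Sult2a genes are close copies of each other, and summed they fell by 1.16 on the log2 scale (SE 0.32).

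Sult5a1 measured 4.73, 9.89 and 13.7 CPM in controls and 0.979, 3.37 and 9.98 in model livers, and 13 of 18 model libraries lay below all controls. It fell by 1.45 (SE 0.35, adjusted p = 8.20e-04, edgeR), a call lost with the clock index (adjusted p = 0.157). The log2 fold change was then -1.23 with a wider SE of 0.68. Sult1b1, which sulfates thyroid hormones, rose from 19.0 ± 6.85 to 36.4 ± 7.16 CPM (0.94, SE 0.16), with 12 of 18 model libraries above all controls. Sult1a1, the abundant phenol sulfotransferase, fell from 366 ± 107 to 273 ± 62.7 CPM (-0.42, SE 0.16, adjusted p = 0.0209, edgeR). Only 3 of 18 model libraries lay below all controls. The call was lost without control 2 (a log2 change of -0.31), with library totals (-0.09) or with the clock index (-0.37). Sult1d1, a sulfotransferase of catecholamines, was not called (106 ± 52.6 and 94.3 ± 21.0 CPM, 95% interval of the log2 fold change -0.60 to 0.25), and its spread was wide in controls.

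The other 17 members did not pass the expression filter and were not tested, and 4 of them, Ugt2a1, Ugt2a2, Sult1c1 and Sult2a6, had no count in any library. The largest total among the 17 was 155 counts, for Sult2b1, the cholesterol sulfotransferase (13 control and 142 model counts). Sult3a1 had none in controls and 30 counts in 12 model libraries, at least 2.51-fold higher against a floor of 3 counts pooled over the controls. Sult2a1, a sulfotransferase of steroids, had 3 and 15 counts. Ugt1a2 had 18 and 99, Ugt1a8 16 and 14, Sult2a2 13 and 46, Sult4a1, known from brain, 6 and 41, and Sult6b1 4 and 46. Sult2a3 had 12, Sult2a4 1, Sult3a2 2 and Sult6b2 1, all in model libraries, and Sult2a5 had 1 and 2. Kidney markers, for the tissue where several of these genes are also active, summed to at most 0.244 CPM in a library, with Aqp2 at 0 throughout. Intestine markers summed to 63.8 to 106 CPM in model libraries and 30.6 to 53.3 in controls, with 2 of 3 tested higher (Fabp2 and Lgr5), and Cdx2 and Muc2 had means of at most 0.0617 CPM in either group. Their part in these counts was not tested.

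Genes that supply, undo or regulate conjugation were read as lists, beside 31.2% higher and 28.8% lower over all genes tested. Of 9 genes of cofactor supply, 5 rose and 2 fell. Ugp2, which makes UDP-glucose, rose from 255 ± 62.1 to 469 ± 51.4 CPM (a log2 change of 0.88, SE 0.10), Ugdh, which oxidises it to UDP-glucuronic acid, by 0.21, Papss1, one of the PAPS synthases, by 0.30, and Slc26a2, a sulfate transporter, by 0.48. Slc26a1, another sulfate transporter, fell from 121 ± 14.5 to 99.3 ± 17.3 CPM (-0.29) and Bpnt1, which breaks down the product left by PAPS, by 0.23. Papss2 gave -0.20 (adjusted p = 0.109, edgeR). Once the clock index entered the edgeR fit, Ugdh (adjusted p = 0.167), Papss1 (0.355), Slc26a2 (0.498), Slc26a1 (0.0741) and Bpnt1 (0.248) were not called. Their log2 changes were then 0.25, 0.21, 0.14, -0.42 and -0.25. Papss2 was called lower (-0.47, adjusted p = 0.0316). With library totals, Slc26a1 (0.04), Bpnt1 (0.09) and Papss2 (0.13) turned in sign and were not called. Of 4 tested genes that release the groups again, 2 rose and 1 fell, with Arsa, an arylsulfatase, at 0.84 and Sumf1, which activates sulfatases, at -0.42, while Gusb, the glucuronidase, gave -0.08 (adjusted p = 0.536, edgeR). Of 4 exporters of conjugates 1 rose, Abcc4 (a log2 change of 2.20, SE 0.24), while the abundant canalicular pump Abcc2 gave -0.05 (adjusted p = 0.664, edgeR). With library totals Sumf1 lost its call (-0.09), and Abcc2 was called higher (0.28).

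Of 19 regulators, 4 rose and 8 fell, where 31.2% of all genes were higher and 28.8% lower. Hnf4a, a hepatocyte transcription factor, fell from 1119 ± 221 to 589 ± 74.5 CPM (-0.93, SE 0.09), and Nr1i2, the pregnane X receptor, from 130 ± 22.9 to 79.4 ± 7.94 CPM (-0.72). Cux2, a repressor of male-type genes in female liver, fell by 3.04 (SE 0.65). Its controls spread from 0.193 to 19.5 CPM and its model libraries from 0.109 to 3.46, with 6 of 18 below all controls. With the clock index it was -2.56 (adjusted p = 0.0426, edgeR). Nr1i3, the constitutive androstane receptor, gave -0.34 (adjusted p = 0.178) and Ahr, the aryl hydrocarbon receptor, 0.16 (adjusted p = 0.296, edgeR), though library totals called Ahr higher (0.49). Targets of the factors that are known to induce conjugating enzymes were counted too, beside the same shares. The lists are short, and no list was tested against these shares. Of 10 targets of NRF2, the regulator of antioxidant genes, 8 rose and 0 fell, among them the abundant Gstm1 (0.71), Gsta1 (4.69) and Slc7a11, which went from 0.0160 ± 0.0268 to 0.569 ± 0.348 CPM. With the clock index Gstm1 was at 0.49 and not called (adjusted p = 0.101, edgeR). Of 8 targets of CAR and PXR 2 rose and 4 fell, with the abundant Cyp3a11 at -0.82, Gadd45b at -1.67 and Abcb1a at 2.10. Of 5 tested targets of the aryl hydrocarbon receptor 2 rose and 1 fell, with Cyp1a2 at -0.96, Cyp1b1 at 2.09 and Nqo1, a target of NRF2 as well, at 1.51.

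Among the 18 model libraries the 25 tested members spread over a median SD of 0.41 log2 units, against 0.26 for all genes tested. Sult1e1 spread most (SD 1.78, on log2 CPM with a prior count of 2 like the other SDs here). The SD of Sult1e1 without model 10 was 1.54, but on plain log2 CPM, so these values do not compare directly. Its range was 24.8-fold without model 10, whose level is below that of 3 counts. Sult1e1 was followed by Sult2a8 (0.93), Sult5a1 (0.92), Ugt2b37 (0.84) and Ugt2b38 (0.79). In controls Sult1e1, Sult2a8, Sult5a1, Ugt2b37 and Ugt2b38 had SDs of 0.74, 0.42, 0.60, 1.345 and 0.96, against a median of 0.28 for all genes. A wide spread was thus not particular to model livers. Ugt2b35 and Sult1c2, each with an SD of 0.18, spread least. Against a macrophage score, the mean log2 CPM of the 10 macrophage markers, 10 of 26 members tested in model libraries fell and 1 rose, where 6.98% of all genes fell and 12.6% rose (edgeR quasi-likelihood slope), or 19.6% in either direction. Ugt2a3 fell by 0.40 per unit of the score (SE 0.07, adjusted p = 3.62e-04), Ugt3a2 by 0.32 (SE 0.06, adjusted p = 5.89e-04) and Sult2a8 by 0.83 (SE 0.21, adjusted p = 0.00853). Sult2b1 rose by 1.23 (SE 0.38), from few counts. The libraries model 10 and model 12 have the lowest scores, and without them 5 members fell (Ugt2b1, Ugt2a3, Sult1b1, Ugt3a1 and Ugt3a2) and 0 rose by the edgeR test, where 2.17% of all genes fell and 6.60% rose. At an unadjusted p below 0.05 (edgeR), 10 members fell and 1 rose. The share of all genes at that threshold was not computed, so this count has no background. The slope of Sult2a8 was then -1.02 with an adjusted p of 0.0711.

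**Figure D4:**
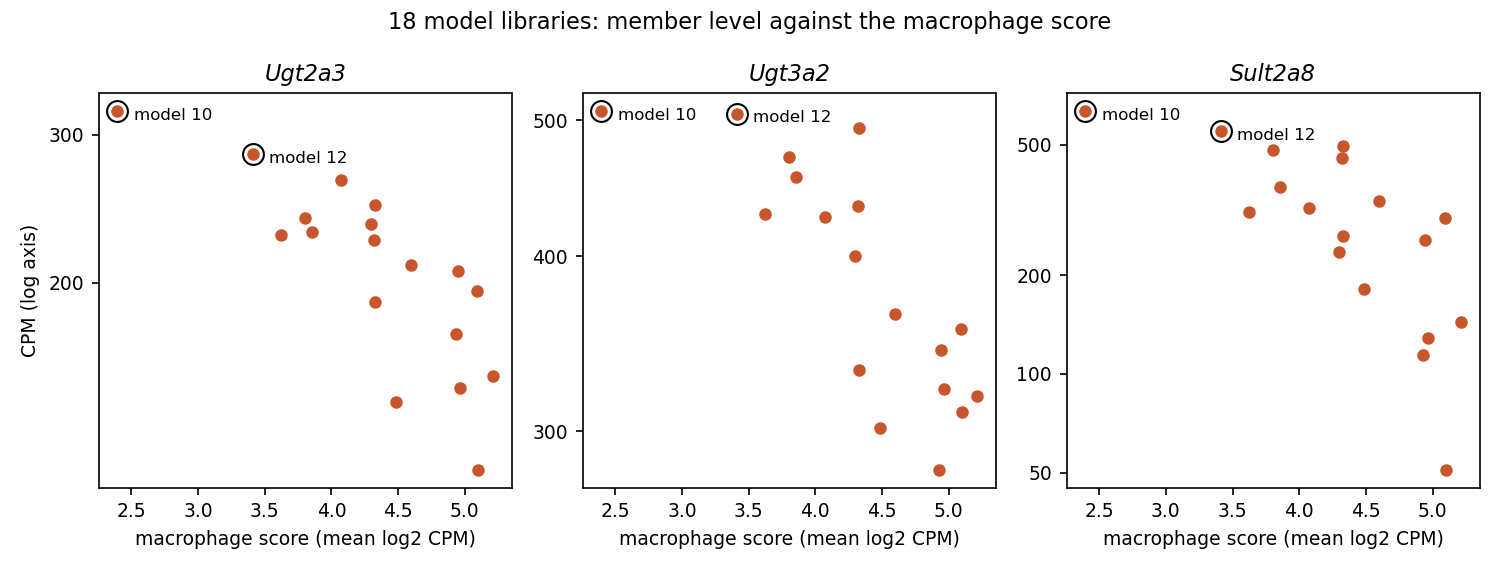
CPM on a log axis of Ugt2a3, Ugt3a2 and Sult2a8 against the macrophage score (mean log2 CPM of 10 markers) in the 18 model libraries. The circled libraries model 10 and model 12 have the lowest scores, 2.40 and 3.41, and sit at high levels of all 3 genes.

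Some members are known to differ between male and female liver, so sex-linked transcripts were read beside them. Xist reached at most 0.257 CPM in a library, and the Y-linked gene Ddx3y measured at least 14.3 CPM in all of them. Of 18 genes known to be higher in male liver, 16 fell and 0 rose, and the list's median was -2.53. Of 13 tested female-predominant genes 6 rose and 6 fell. Over all genes tested, 31.2% were higher and 28.8% lower. A sex-bias index, the mean log2 CPM of the female list minus that of the male list, ran from -7.67 to -5.59 in controls and from -4.79 to -0.88 in model livers. Among model libraries 2 members fell with the index, Ugt2b38 by 0.59 per unit (SE 0.12, adjusted p = 0.0421) and Sult5a1 by 0.69 (SE 0.13, adjusted p = 0.0165), where 0.242% of all genes fell and 0.338% were called in either direction. Without model 2 and model 4, which have the highest index, neither passed (adjusted p = 0.530 and 0.433, edgeR), with slopes of -0.54 and -0.57. At an unadjusted p below 0.05 (edgeR), 3 members then fell and 4 rose. The share of all genes at that threshold was not computed, so this count has no background either.

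Clock genes also separated the libraries. An index of 9 clock genes ran from -3.80 to -2.58 in model libraries, while 5 controls lay between -0.82 and 1.55 and control 6 at -3.83. The labels give no time of collection, and apart from control 6 the clock difference and the model cannot be told apart. With the index as a covariate, 6 members were called higher and 7 lower, where 21.8% of all genes were higher and 17.8% lower. Those 13 were Ugt1a6a, Ugt1a7c, Sult1b1, Sult1c2, Sult1e1 and Sult2a7 among the higher, and Ugt1a9, Ugt1a10, Ugt2a3, Ugt2b1, Ugt2b5, Ugt2b36 and Ugt2b38 among the lower. With control 6 as the only control, the log2 fold change was 0.78 for Ugt1a6a, 1.59 for Ugt1a7c and 0.67 for Sult1b1. It was 0.73 for Sult1c2, 4.5 for Sult1e1 and 1.035 for Sult2a7. Members called lower with all controls then ran from -2.52 (Ugt1a10) to -0.32 (Ugt3a2), except Ugt2b37 at 1.59. A single control gives no spread of its own, so only the sizes of these changes are given. Control 6 had 0.642 CPM of Ugt2b37, within the range of the model libraries (0.591 to 5.45), 5.44 CPM of Ugt2b38 and 7.64 CPM of Sult1c2, both outside it.

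**Figure D5:**
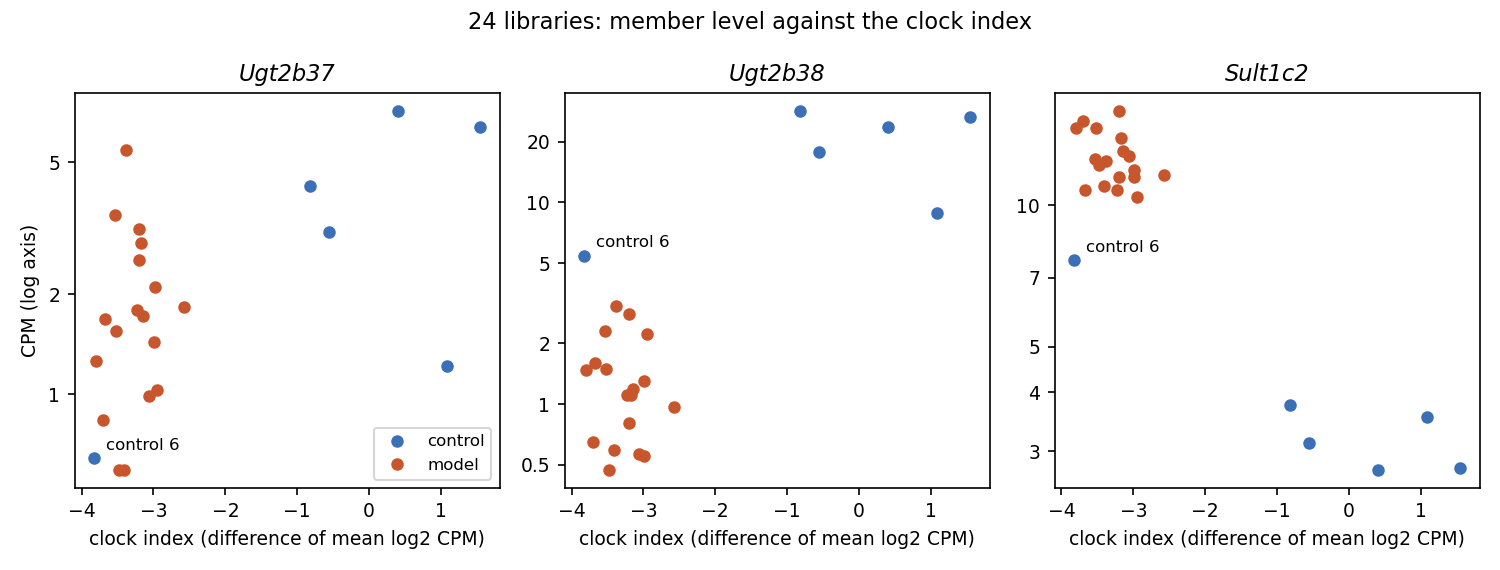
CPM on a log axis of Ugt2b37, Ugt2b38 and Sult1c2 against the clock index in all 24 libraries. Control 6, at an index of -3.83, sits among the model libraries for Ugt2b37 and between the groups for the other two genes.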

How the data were processed

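Mouse liver RNA was sequenced as 6 control and 18 model libraries, captured on oligo(dT) beads per the labels' protocols. The deposited table gives raw counts for each Ensembl gene. Exon positions and a summed exon length, another unit, stand beside them per the file headers, and the length was used to scale CPM per kilobase. The build was GRCm39 per the submitters' processing notes. Not given in the sources used here are the aligner, the counter, its annotation and whether it used strand. Symbols came from a reference name table, in which Sts was not matched and Bpnt2 was matched under its older symbol. Promoter windows came from RefSeq (GRCm38.p6).

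Group differences were tested with edgeR 4.0.16 in R 4.3.3 (TMM factors, default filter, robust quasi-likelihood fit, group alone) over all genes, with Benjamini-Hochberg adjustment and a threshold of 0.05, after testing the script on simulated data. Slopes over model libraries used the same test. Standard errors of log2 fold changes come from that fit. Ratios were computed in Python 3.11.15 and not tested.

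In each subfamily the named members were the most abundant per kilobase, the largest called change, and called members of at least 5 CPM in a group, and the 8 largest changes are given per library. For other lists these were the most abundant gene, the 2 largest called changes and 7 fixed genes. Other members and genes are given to account for all, and 1 list gene named by the rule is not reported here. The members and lists were chosen with earlier results of these data known. Alternatives were RLE, upper-quartile and library-total scaling, DESeq2 1.42.0, limma-voom 3.58.1, 2 other filters, a threshold of 0.01, a clock covariate, a replicate block, summed copies and each library left out. The use of control 6 as the only control was chosen after seeing the data.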

Additional observations from a re-analysis of the deposited data

Results flagged for a closer look

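Among 83 genes of the members and the lists whose 6 control libraries were examined, 10 had a control far from the other 5 (Dixon's test at the 95% level), where chance flags about 1 group in 20. Of the members, Sult1c2 measured 7.64 CPM in control 6, against 2.74 to 3.77 in the other controls. Ugt1a9 measured 131 CPM in control 5, against 77.0 to 91.6, and Ugt1a7c 0.284 CPM in control 4, against 0.161 to 0.203. Control 6 was also the highest control for Ugp2 (371 CPM against 193 to 257), Slc26a2 (5.10 against 2.98 to 3.60), Abcb1a (5.41 against 1.51 to 2.66), Cyp2b9 (0.372 against 0 to 0.0710) and the clock gene Dbp (40.5 against 1.85 to 7.56). Serpina1c was lowest in control 4 (1330 CPM against 1720 to 1915), and Mmp8 highest in control 2 (0.149 against 0 to 0.0338).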

How the results depend on the processing

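The counts of members called higher and lower, 6 and 14, were 6 and 14 with RLE factors (30.65% and 29.85% of all genes) and with DESeq2 (31.02% and 30.1%). With the replicate number as a replicate block they were 6 and 12 (25.36% and 19.35%), which ended the calls of Ugt2b34 and Ugt2b37. Numbers above 6 occur only among model libraries, so the group difference in that fit rests on libraries 1 to 6 of each group. Same-numbered libraries did not deviate together (correlations -0.293 to 0.067). Scaling by library totals shifted the all-gene median to 0.34 (log2) and left 9 called lower (8.95% of all genes, with 53.9% higher), and a clock covariate left 7 (17.8%). With control 6 as the only control, 1 was called higher and 8 lower (13.3% and 9.75% of all genes), and this lone library is assumed to vary like the model libraries. Leaving out single libraries gave 6 to 7 higher and 12 to 15 lower, where 29.4 to 31.4% of all genes were higher and 27.1 to 29.7% lower. It ended calls of Sult1a1 (without control 2), Ugt2b34 (control 1 or 6) and Ugt2b37 (control 1, 3 or 4, or model 1, 6 or 12). It added Ugt2b35 (control 3 or model 10) and, higher, Sult2b1 (control 2), which otherwise was below the filter or not called. Among called members, directions turned for Ugt2b34 with library totals (0.06) and for Ugt2b37 with the clock index (0.56) and with control 6 alone (1.59). Sult1d1, not called, was at 0.28, 0.08, 0.16 and 0.02 with the clock index, control 6 alone, library totals and without control 2, and library totals put Ugt1a1 (0.14), Ugt1a6b (0.25) and Ugt2b35 (0.18) above 0. Of 10 members that fell and 1 that rose with the macrophage score, library totals gave 5 and 3 (2.32% and 22.0% of all genes), and leaving out the 2 farthest libraries 5 and 0 (2.17% and 6.60%). The 2 that fell with the sex-bias index became 0 without its 2 farthest libraries. Depth limits the members below the filter, and the shared Ugt1a exons limit single genes of that locus and their sum.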
